A study of Homo sapiens with 6 samples.

Results

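The genes described here build and run the mitotic apparatus: 58 genes of the kinetochore, the spindle, chromosome condensation and cohesion, cytokinesis and mitotic entry or exit, out of 18701 genes with a value on the arrays. They were listed by symbol and function, and each gene's value on an array is the median log2 signal of the probe sets that carry only its symbol, between 4 and 50 probe sets per gene. All 58 passed the filter that left out the dimmest 25% of genes, so they are read against 14026 genes tested. The cells were HT29-tsp53, a derivative of HT-29, a human colorectal adenocarcinoma line, and every culture carried the same murine V135A p53 transgene, a temperature-sensitive p53. Cultures with p53 on spent 16 h at 32 °C. Cultures with p53 on then off spent 16 h at 32 °C and then 6 h of recovery. The controls, with p53 off, stayed at the restrictive temperature, 38 °C in the labels. The design text names 37 °C for the recovery, and the labels of the recovery samples name 38 °C in their description but 32 °C in their source. Each group had 2 Affymetrix Gene 1.0 ST arrays, from experiments numbered 1 and 2, and nothing in the labels describes the cultures of an experiment further. No culture without the transgene was kept at 32 °C here, so p53 activity and temperature cannot be told apart.

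During mitosis each chromosome is condensed by condensin and held to its sister by cohesin. The kinetochore assembles on centromeric chromatin and binds spindle microtubules through the Ndc80 complex, and the spindle checkpoint holds back the anaphase-promoting complex until every kinetochore is attached. Most of these genes are transcribed in the G2 and M phases. As background, active p53 is known to lower many of them through its target p21 and the DREAM repressor complex, which contacts an element called the CHR (cell cycle genes homology region) in their promoters.

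The level of a p53 target and of cell type markers was checked first. CDKN1A, the gene of p21, stood at log2 signals of 8.32 and 7.91 with p53 on, 4.92 and 4.78 after recovery and 4.83 and 4.99 with p53 off. All 9 intestinal epithelial markers were measured above the dim filter, with values between 3.83 and 12.64. Of 6 fibroblast markers 5 were above the filter value of 3.62, the highest COL1A1 at 5.26 to 5.89, and DCN was under it at 1.91 to 2.38. Of 6 leukocyte markers 3 were above it, CD68 (5.72 to 6.65), CD14 (4.70 to 5.70) and LYZ (10.81 to 11.52), while PTPRC lay between 1.39 and 2.05. The part of other cell types in the results was not tested. The cold-inducible RNA-binding genes CIRBP and RBM3 were higher with p53 on than with p53 off in both experiments. CIRBP stood at 8.86 and 8.37 with p53 on, 7.69 and 7.72 after recovery and 7.59 and 7.45 with p53 off. RBM3 stood at 7.91 and 6.99, 7.43 and 6.72, and 6.81 and 5.98 in the same groups. After recovery CIRBP lay closer to p53 off in both experiments, while RBM3 lay closer to p53 on. Whether temperature or p53 moved these genes was not tested, nor was the part of the temperature in the results below.

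Mitotic gene transcripts were first compared between cells with p53 on and control cells. The 58 genes had a median log2 difference of -0.75 between p53 on and p53 off, with -0.79 in experiment 1 and -0.70 in experiment 2, against 0.02 for all genes tested. In 51 of them, or 87.9%, the signal was lower with p53 on in both experiments, where 31.6% of all genes tested were. In 44 of them, or 75.9%, both p53 on arrays lay below both p53 off arrays, against 20.6% of all genes. No member had both p53 on arrays above both p53 off arrays, against 22.6% of all genes. In bulk RNA, fewer cells in G2 and M and less of these transcripts per cell cannot be told apart.

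Calls were made with limma, at a Benjamini-Hochberg adjusted p under 0.05 over all genes tested, and errors beside log2 differences are limma standard errors with n = 2 arrays per group. Without the experiment number in the fit, 3 of the 58 members were called, all lower (5.17% of members, against 0.585% of all genes called lower and 0.898% called higher). In that fit 35 members had an unadjusted p under 0.05, as did 2164 of the 14026 genes tested. When the experiment entered the fit as a replicate block, 35 members fell and 0 rose (60.3% of members, against 6.28% of all genes called lower and 5.18% called higher). The 3 calls without the block were lost when any single array was left out. Those fits leave 1 array in a group and called few of all genes lower, so the loss is not particular to these members. With the block and the mean of a gene's probe sets in place of the median, 45 members fell (10.5% of all genes were called lower), and 19 fell with the block and no dim filter (2.49% of all genes). Of the 35 members that fell with the block, 33 also did so with the mean of probe sets, and AURKA and SPC25 did not.

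**Figure D1:**
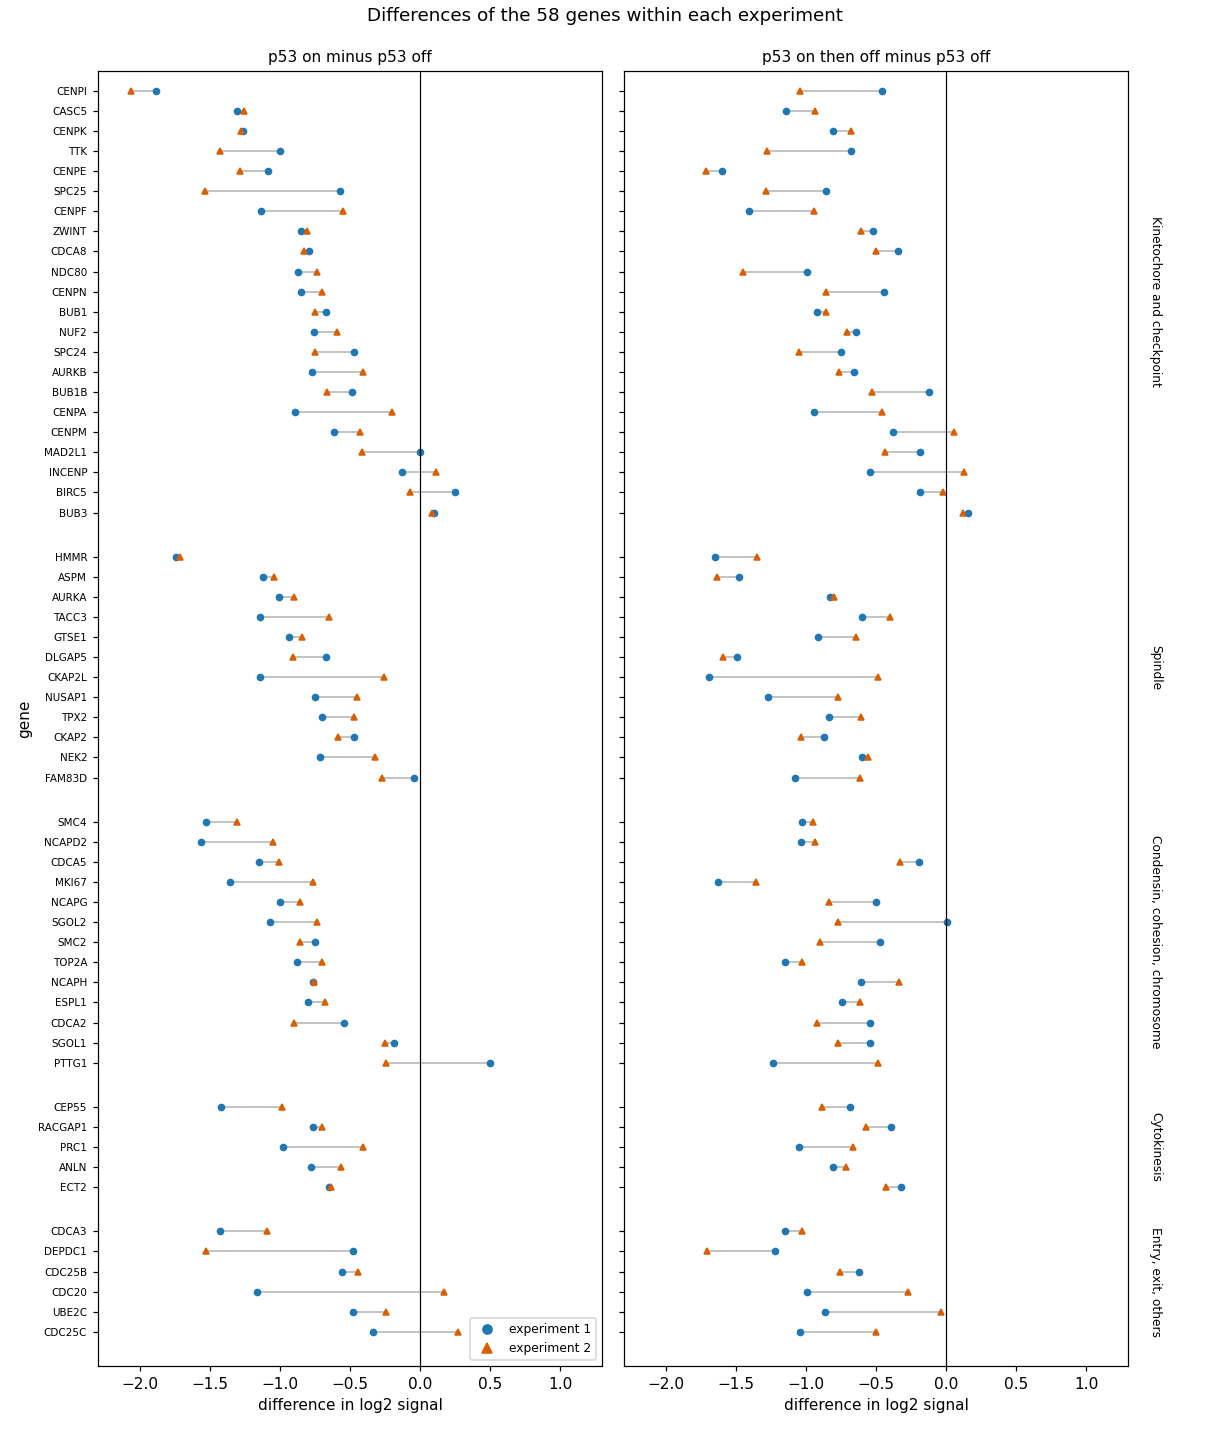
Each row is a gene, and the points give its difference in log2 signal in experiment 1 (circles) and experiment 2 (triangles), for p53 on minus p53 off (left) and p53 on then off minus p53 off (right), grouped by function. On the left 51 of 58 genes lie below 0 in both experiments, and on the right 54 do.

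Among the 22 kinetochore and checkpoint genes the median difference was -0.74, and 13 fell with the block. CENPI, a subunit of the inner kinetochore network that sits on centromeric chromatin, had the largest difference of all 58 genes. Its log2 signal was 5.68 and 5.11 with p53 on, against 7.57 and 7.18 with p53 off, and all p53 on values lay below all p53 off values. The difference was -1.97 ± 0.37, or 3.93-fold lower (adjusted p = 0.0613, or 0.00106 with the block). CENPK, of the same network, differed by -1.26 in experiment 1 and -1.28 in experiment 2, while its level differed more between the experiments than between the states. It stood at 6.61 and 4.96 with p53 on, against 7.88 and 6.24 with p53 off, so the groups overlapped (adjusted p = 0.502, or 0.00318 with the block).

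The outer kinetochore and its checkpoint kinases were lower as well. CASC5, also named KNL1, is the scaffold on which checkpoint proteins gather, and it stood at 5.99 and 5.74 with p53 on, against 7.30 and 7.00 with p53 off. It fell by 1.28 ± 0.21 on the log2 scale (adjusted p = 0.0471, or 0.00322 with the block). Of its 34 probe sets, 33 were lower with p53 on in both experiments. TTK, the kinase that starts checkpoint signalling, stood at 5.73 and 5.51 with p53 on, against 6.73 and 6.94 with p53 off (-1.21 ± 0.23, adjusted p = 0.0617, or 0.0071 with the block). All 4 genes of the Ndc80 complex, the microtubule coupler, were lower with p53 on without overlap: the differences ran from -0.61 for SPC24 to -1.05 for SPC25, and NDC80, NUF2 and SPC25 fell with the block. The SPC25 call was lost with the mean of its probe sets (-0.60, adjusted p = 0.131 with the block).

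Several parts of the same machines had levels close to control by the median of their probe sets. BUB3, a checkpoint protein that also has roles outside mitosis, stood at 9.30 and 8.84 with p53 on, against 9.19 and 8.75 with p53 off (0.09 ± 0.28, adjusted p = 0.926, or 0.769 with the block). INCENP, the scaffold of the chromosomal passenger complex, stood at 7.29 and 7.27, against 7.42 and 7.15 with p53 off, and the 2 groups overlapped. BIRC5, which encodes survivin of the same complex, differed by 0.09 ± 0.21. With the mean of probe sets BUB3 differed by 0.04, INCENP by -0.31 and BIRC5 by -0.22, none called with the block (adjusted p = 0.864, 0.162 and 0.288). The other 2 subunits of that complex were lower without overlap: CDCA8 (borealin) differed by -0.81 ± 0.20 and fell with the block, while the kinase AURKB differed by -0.59 ± 0.21 (adjusted p = 0.0783 with the block). MAD2L1, the checkpoint protein that binds CDC20, differed by 0.00 in experiment 1 and -0.42 in experiment 2.

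All 12 spindle genes were lower with p53 on in both experiments, with a median of -0.74, and 6 fell with the block. HMMR, a microtubule-binding protein of the spindle, had the largest difference. It stood at 5.28 and 4.15 with p53 on, against 7.02 and 5.87 with p53 off, a difference of -1.74 and -1.72 in the 2 experiments and 3.32-fold lower (adjusted p = 0.176, or 0.00115 with the block). ASPM, which works at spindle poles, stood at 6.76 and 6.13 with p53 on, against 7.88 and 7.17 with p53 off (-1.08 ± 0.39, adjusted p = 0.25, or 0.00661 with the block). AURKA, the kinase of spindle assembly, stood at 7.59 and 7.62 with p53 on, against 8.59 and 8.52 with p53 off (-0.95 ± 0.19, adjusted p = 0.0687, or 0.00978 with the block). With the mean of its 10 probe sets the AURKA difference was -0.30 and the call was lost (adjusted p = 0.238 with the block), and 8 of the 10 were lower in both experiments and 1 was higher. FAM83D, a spindle protein that binds HMMR, had the smallest difference of the group, -0.16 ± 0.34.

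The condensin genes moved as a set. All 5 measured subunits of condensin I, SMC2 and SMC4 among them, were lower with p53 on without overlap, between -0.76 for NCAPH and -1.42 for SMC4, and all 5 fell with the block. SMC4, an ATPase subunit shared by both condensins, stood at 7.02 and 7.45 with p53 on, against 8.55 and 8.75 with p53 off. It was 2.67-fold lower (-1.42 ± 0.24, adjusted p = 0.0471, or 0.00216 with the block). NCAPD2 stood at 8.01 and 8.42, against 9.58 and 9.47 with p53 off (-1.31 ± 0.22, adjusted p = 0.0468, or 0.00467 with the block). All 31 probe sets of NCAPD2 and 26 of 27 of SMC4 were lower in both experiments.

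Other chromosome genes were lower too, with PTTG1 apart from them. CDCA5, which encodes sororin, the protector of cohesin, stood at 6.54 and 6.26 with p53 on, against 7.69 and 7.26 with p53 off (-1.08 ± 0.28, adjusted p = 0.127, or 0.00694 with the block). MKI67, the Ki-67 protein that coats mitotic chromosomes, differed by -1.06 ± 0.22 and TOP2A, the topoisomerase that disentangles sister chromatids, by -0.79 ± 0.23, and both fell with the block. PTTG1, which encodes securin, the inhibitor of separase, stood at 8.93 and 7.00 with p53 on, against 8.43 and 7.24 with p53 off. Its experiments moved in opposite directions, and its probe sets may also detect the near-identical copies PTTG2 and PTTG3P. The gene of separase itself, ESPL1, differed by -0.74 ± 0.19 and fell with the block.

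All 5 cytokinesis genes were lower with p53 on without overlap, with a median of -0.69, and 4 fell with the block. CEP55, needed for the final cut between daughter cells, stood at 6.36 and 5.67 with p53 on, against 7.78 and 6.65 with p53 off (-1.20 ± 0.53, adjusted p = 0.347, or 0.00767 with the block). RACGAP1, which works at the spindle midzone, stood at 7.58 and 7.28, against 8.34 and 7.98 with p53 off (-0.73 ± 0.27, adjusted p = 0.0292 with the block). Its partner ECT2, needed for furrow formation, had the smallest difference of the group (-0.64 ± 0.25) and fell with the block. PRC1, the bundler of midzone microtubules, stood at 8.71 and 8.86 with p53 on, against 9.69 and 9.27 with p53 off, and did not pass with the block (-0.69 ± 0.22, adjusted p = 0.0533).

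Of the 6 remaining genes, CDCA3 and DEPDC1 fell with the block. CDCA3, a trigger of mitotic entry, stood at 6.05 and 5.95 with p53 on, against 7.48 and 7.04 with p53 off (-1.26 ± 0.24, adjusted p = 0.0617, or 0.00403 with the block). DEPDC1 stood at 5.85 and 4.34, against 6.33 and 5.87 with p53 off (2.01-fold lower, adjusted p = 0.439, or 0.0334 with the block). CDC25B and CDC25C encode phosphatases that activate CDK1, and neither passed the test. CDC25B stood at 6.83 and 6.95 with p53 on, against 7.39 on both p53 off arrays (-0.50 ± 0.19, or -0.26 with the mean of its 22 probe sets, 12 of them lower and 4 higher in both experiments). CDC25C had the smallest difference of the group (-0.03 ± 0.33). CDC20, the activator of the anaphase-promoting complex, moved by -1.16 in experiment 1 and by 0.17 in experiment 2. Its p53 off level was 8.01 in experiment 1 and 6.18 in experiment 2.

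**Figure D2:**
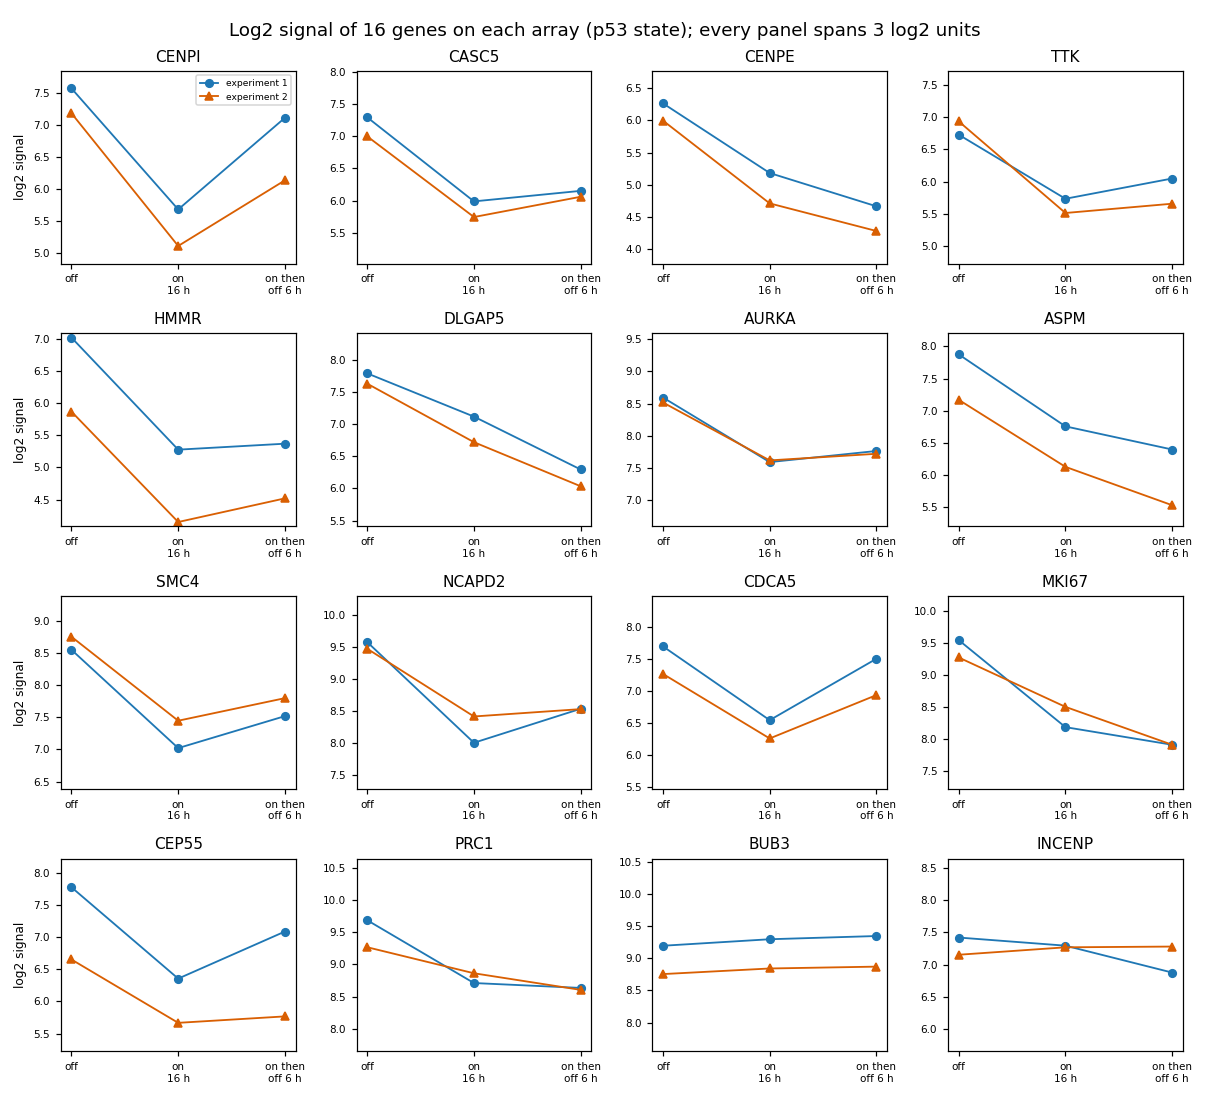
Log2 signal of 16 of the genes on each array, by p53 state (p53 off, p53 on for 16 h, p53 on then off for 6 h), with lines joining the arrays of experiment 1 (circles) and experiment 2 (triangles); every panel spans 3 log2 units. CENPI and CDCA5 are higher after recovery than with p53 on in both experiments, DLGAP5, ASPM, CENPE and MKI67 are lower, and BUB3 stays within 9.35 and 8.75 throughout.

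Because so many members moved together, their promoter windows from RefSeq (GRCh38.p14, 250 bases before to 50 bases after each annotated start) were searched for 3 short motifs on both strands. A window was present for 47 of the 58 members, and AURKA, BIRC5, BUB3, CDCA2, CENPM, FAM83D, CASC5, RACGAP1, TPX2, TTK and UBE2C had none in the table. The stretches below cover the 150 bases before the start, 5′ to 3′ on the gene's strand. Capitals mark the CHR letters TTTGAA and the CCAAT box letters CCAAT, on either strand (TTCAAA and ATTGG). HMMR is shown for the largest spindle difference, NCAPD2 and SMC4 as calls, and ANLN as a cytokinesis gene with a paired match. CENPE is shown as a member that fell with no match in this stretch. INCENP is a member with a match whose median over probe sets stayed close to control.
HMMR, chr5:163460482-163460631, + strand: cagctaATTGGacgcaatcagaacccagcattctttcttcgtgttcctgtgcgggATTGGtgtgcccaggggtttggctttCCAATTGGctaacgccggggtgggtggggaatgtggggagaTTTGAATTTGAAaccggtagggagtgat
NCAPD2, chr12:6493952-6494101, + strand: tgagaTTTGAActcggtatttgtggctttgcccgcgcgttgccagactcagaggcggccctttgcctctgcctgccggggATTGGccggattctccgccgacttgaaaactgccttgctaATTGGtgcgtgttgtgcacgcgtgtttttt
SMC4, chr3:160399500-160399649, + strand: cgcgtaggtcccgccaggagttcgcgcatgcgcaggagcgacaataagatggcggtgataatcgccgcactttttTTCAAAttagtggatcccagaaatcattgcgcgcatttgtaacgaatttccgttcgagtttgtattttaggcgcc
ANLN, chr7:36389712-36389861, + strand: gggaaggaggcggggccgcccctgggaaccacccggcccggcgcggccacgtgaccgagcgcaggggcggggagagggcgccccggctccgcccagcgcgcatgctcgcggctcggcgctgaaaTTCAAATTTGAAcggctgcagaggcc
CENPE, chr4:103198344-103198493, - strand: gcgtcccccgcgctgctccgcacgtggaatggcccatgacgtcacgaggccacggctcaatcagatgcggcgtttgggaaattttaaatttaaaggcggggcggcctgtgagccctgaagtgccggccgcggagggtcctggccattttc
INCENP, chr11:62123861-62124010, + strand: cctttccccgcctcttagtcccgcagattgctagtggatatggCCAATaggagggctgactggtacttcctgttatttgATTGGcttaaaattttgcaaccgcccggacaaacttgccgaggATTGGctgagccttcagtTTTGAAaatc

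HMMR holds 2 adjacent TTTGAA matches, and ANLN holds a match on each strand side by side. In HMMR 1 stretch of capitals is a CCAAT box on both strands that overlap. SMC4 has a second annotated start whose window holds no match to the CHR letters. These are letter matches and show no binding.

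The CHR letters were found in 32 of the 47 members with a window, or 68.1%, against 18.2% of 27305 genes with a window. The CCAAT box was found in 35 members (74.5%, against 39.7% of genes) and the E2F-type letters TTCCCGCC in 6 (12.8%, against 3.79%). Matches to different motifs were counted separately and may overlap. Counting from 0 at the annotated start, 35% of the members' 60 windows had a CHR match beginning in the 50 bases just before the start, against 2.56% of all windows. Further upstream, in the 50 bases of the window farthest from the start, the shares were 3.33% and 3.65%. Members with a CHR match had a median p53 on minus p53 off difference of -0.80, and 23 of 32 fell with the block. Members with a window and no CHR match had a median of -0.71, and 7 of 15 fell with the block. The CCAAT box split the other way, with medians of -0.76 with a match and -0.85 without. With the block 20 of 35 and 10 of 12 of these fell. For the E2F-type letters the medians were -0.91 and -0.79, and 4 of 6 and 26 of 41 fell. These splits were not tested.

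**Figure D3:**
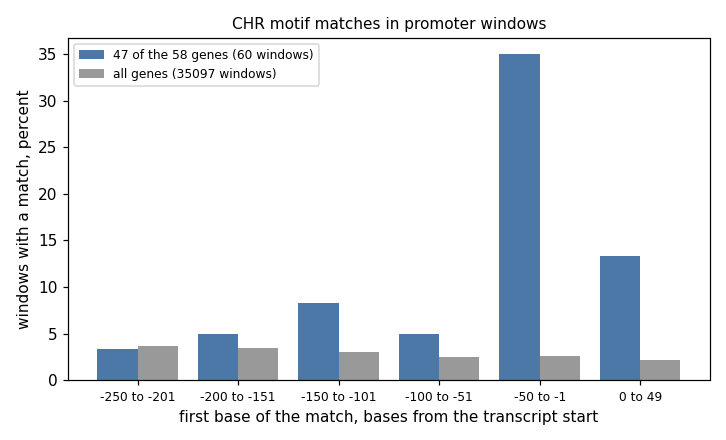
Percent of RefSeq promoter windows with a CHR match, by where the match begins relative to the annotated transcript start, for 47 of the 58 genes (60 windows, left bars) and all genes (35097 windows, right bars). In the bin from -50 to -1 the 47 genes with a window stand at 35% and all genes at 2.56%.

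Single probe sets, which lie along the transcripts, were read in the same way. Of the 1013 probe sets of the 58 genes, 83.4% were lower with p53 on in both experiments and 3.46% were higher, against 31.8% and 29.4% of the probe sets of all genes tested. Every probe set was lower in ANLN (24), CENPF (21), NCAPG (19), PRC1 (18), ZWINT (15), CENPK (11), CEP55 (9), CDCA3 (6) and NCAPD2. At the other end, 1 of 9 probe sets was lower in PTTG1, 2 of 11 in BUB3 and 1 of 4 in FAM83D. Probe sets of a gene share their RNA and are not replicates. INCENP, whose median hardly differed, had 11 of 21 probe sets lower in both experiments and 1 higher, while the median of its probe sets differed by -0.01.

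Recovered cells were then set against cells with p53 on. The 58 genes had a median difference of -0.04, with 0.03 in experiment 1 and -0.03 in experiment 2, against 0.02 for all genes tested. In both experiments 23 members were higher and 23 were lower, 39.7% each, against 34.8% and 31.4% of all genes. Both recovery arrays lay above both p53 on arrays in 12 members (20.7%, against 21.3% of all genes) and below them in 12 (20.7%, against 18.3%), shares near the background. In limma 0 members were called without the block. An unadjusted p under 0.05 was found in 3 members and in 1720 of the 14026 genes tested. Without the block 0.143% of all genes were called higher and 0.285% lower. With the block, CENPI and CDCA5 rose and DLGAP5 fell, or 3.45% of members against 3.84% of genes called higher and 1.72% against 3.39% called lower. This comparison and the first share the p53 on arrays.

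CENPI had the largest rise. It stood at 7.11 and 6.14 after recovery, against 5.68 and 5.11 with p53 on, 2.33-fold higher (1.22 ± 0.37, adjusted p = 0.232, or 0.0102 with the block). Of its 22 probe sets 20 were higher in both experiments and 0 were lower. CDCA5 stood at 7.50 and 6.93 after recovery, against 6.54 and 6.26 with p53 on (0.82 ± 0.28, adjusted p = 0.282, or 0.0289 with the block). DLGAP5, which stabilises the microtubules that end at kinetochores, stood at 6.29 and 6.03 after recovery, against 7.12 and 6.72 with p53 on (-0.75 ± 0.23, adjusted p = 0.235, or 0.0352 with the block). It had 17 of 20 probe sets lower in both experiments and 0 higher.

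Over all 1013 probe sets, 32.5% were higher after recovery in both experiments and 30.1% were lower, against 33.2% and 28.9% of the probe sets of all genes tested. Within single genes that did not pass the test with the median of probe sets, the probe sets could lie mostly on 1 side. All 5 condensin genes had positive mean differences, 4 of them positive in both experiments, between 0.12 for SMC2 and 0.42 for SMC4, and 22 of 27 SMC4 probe sets were higher in both experiments with 0 lower. CENPK had 11 of 11 probe sets higher, ECT2 20 of 26 and the spindle gene TACC3 14 of 17, each with 0 lower. The spindle genes as a group had a median of -0.27, and ASPM stood at 6.40 and 5.53 after recovery, against 6.76 and 6.13 with p53 on, with 17 of 32 probe sets lower in both experiments and 0 higher. The ASPM difference was -0.48, or -0.26 with the mean of its probe sets. TOP2A had 24 of 39 probe sets lower, CENPF 16 of 21 and MKI67 11 of 16, again with 0 higher in both experiments. The median difference of a gene was close to 0 in NUF2 (-0.0039), CDCA2 (-0.0078), NEK2 (-0.07), UBE2C (-0.09) and ANLN (-0.09), the smallest of each function group.

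**Figure D4:**
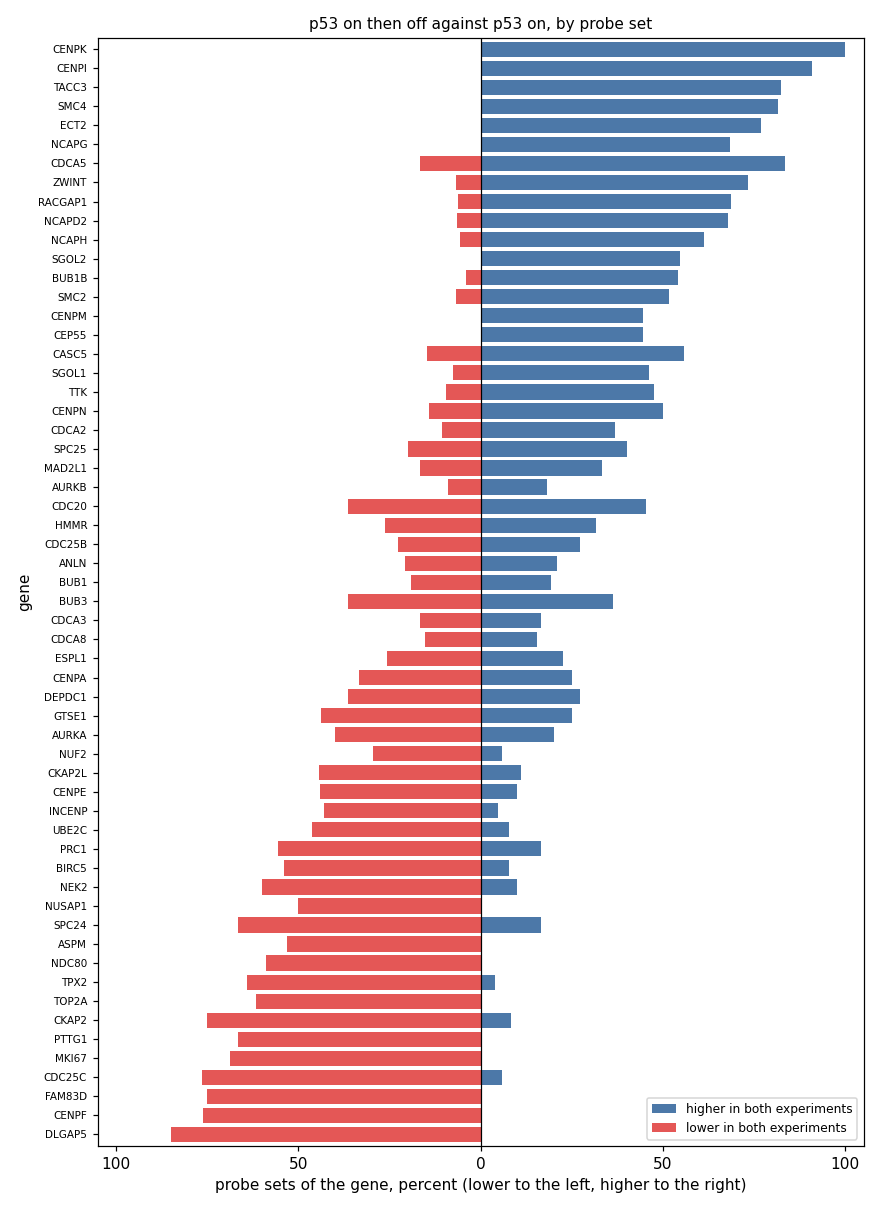
For each of the 58 genes, the percent of its probe sets that were higher (right) or lower (left) in both experiments after recovery than with p53 on; the rest moved differently in the 2 experiments. CENPK (11 of 11) and CENPI (20 of 22) are at the higher end, and DLGAP5 (17 of 20) and CENPF (16 of 21) at the lower end.

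Other members with large differences against p53 on did not pass the test with the median of probe sets. With the mean of probe sets and the block, CDC25C, PTTG1 and FAM83D were called lower (adjusted p = 0.0183, 0.00951 and 0.0163). CENPK, SMC4 and TACC3 were called higher (adjusted p = 0.016, 0.0163 and 0.0461). In that setting 4 members were called lower and 5 higher, against 6.05% and 7.96% of all genes. CENPE, a kinesin-like motor that moves chromosomes to the spindle equator, stood at 4.66 and 4.28 after recovery, against 5.18 and 4.71 with p53 on (-0.47 ± 0.26, adjusted p = 0.141 with the block). CDC25C stood at 4.91 and 4.56, against 5.62 and 5.33 with p53 on (-0.74 ± 0.33, adjusted p = 0.0648 with the block), and FAM83D at 6.36 and 6.21, against 7.39 and 6.55. PTTG1 stood at 7.19 and 6.76 after recovery, against 8.93 and 7.00 with p53 on, a difference of -1.74 in experiment 1 and -0.24 in experiment 2. CDC25B stood at 6.76 and 6.63 after recovery, against 6.83 and 6.95 with p53 on (-0.19 ± 0.19, or -0.0525 with the mean of its probe sets).

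Changes of sign were looked for among the 3 largest differences of each function group in this comparison. Of these, 5 turned in a fit without the block that lacked 1 array, or with the mean of probe sets. Members with smaller differences turned as well: with the mean of probe sets AURKA went from 0.14 to -0.16 and AURKB from -0.13 to 0.04. Leaving out an array without the block unbalances the experiments, so the offset between them enters the difference. CENPK, CEP55, RACGAP1 and DEPDC1 each had the same sign in both experiments. CENPK stood at 7.07 and 5.56 after recovery, against 6.61 and 4.96 with p53 on (0.53 ± 0.76), and turned to -0.22 without recovery array 1 and to -0.30 without p53 on array 2. CEP55 stood at 7.09 and 5.77, against 6.36 and 5.67 with p53 on (0.42 ± 0.53, or 0.21 with the mean of its probe sets), and turned to -0.24 without recovery array 1. RACGAP1 stood at 7.95 and 7.40, against 7.58 and 7.28 with p53 on (0.25 ± 0.27), and turned to -0.027 without the same array. For these 3 genes and for ECT2, at 9.09 and 8.64 after recovery against 8.76 and 8.44 with p53 on, the groups overlapped although each experiment was higher. DEPDC1 stood at 5.10 and 4.16 after recovery, against 5.85 and 4.34 with p53 on (-0.46 ± 0.53, or -0.093 with the mean of its probe sets), and turned to 0.29 without p53 on array 1. SGOL1, which protects centromeric cohesin, stood at 5.52 and 5.46, against 5.88 and 5.98 with p53 on (-0.44 ± 0.19), and turned to 0.29 with the mean of its probe sets. Of those, 6 of 13 were higher in both experiments and 1 was lower.

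Recovered cells were last compared with the controls, which share their arrays with the p53 on comparison. The 58 genes had a median difference of -0.75, -0.81 in experiment 1 and -0.76 in experiment 2, against 0.03 for all genes. In 54 members, or 93.1%, the signal was lower after recovery in both experiments, where 27.6% of all genes were. In 44 members, or 75.9%, both recovery arrays lay below both p53 off arrays, against 14.5% of all genes, and 0 members lay above without overlap, against 20.4%. In limma 0 members were called without the block, where 0% of all genes were called lower and 0.0285% higher. An unadjusted p under 0.05 was found in 33 members and in 746 of the 14026 genes tested. With the block 12 members fell and 0 rose, 20.7% of members against 0.392% of all genes called lower and 0.207% called higher. These 12 were 21.8% of the 55 genes called lower in that fit. With the block, the count of 12 was 35 with the mean of the probe sets (1.47% of all genes called lower), 10 with quantile normalization (0.364%) and 1 with no dim filter (0.00535%).

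The largest remaining difference was in CENPE. It stood at 4.66 and 4.28 after recovery, against 6.26 and 6.00 with p53 off, 3.16-fold lower (-1.66 ± 0.26, adjusted p = 0.273, or 0.00844 with the block). ASPM stood at 6.40 and 5.53, against 7.88 and 7.17 with p53 off (-1.56 ± 0.39, or adjusted p = 0.0117 with the block). DLGAP5 stood at 6.29 and 6.03, against 7.79 and 7.63 with p53 off (-1.55 ± 0.23, or adjusted p = 0.0117 with the block). All 20 probe sets of DLGAP5, 32 of ASPM and 44 of 50 of CENPE were lower in both experiments.

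HMMR and MKI67 were close behind. HMMR stood at 5.37 and 4.52 after recovery, against 7.02 and 5.87 with p53 off (-1.50 ± 0.52, or adjusted p = 0.0151 with the block), and MKI67 at 7.91 and 7.91, against 9.54 and 9.27 (-1.49 ± 0.22, or adjusted p = 0.0252 with the block). The other 7 genes that fell with the block had differences between -1.47 for DEPDC1 and -0.99 for SMC4, with adjusted p between 0.0413 and 0.0492. With the median of probe sets, the 12 genes hold members of each function group except cytokinesis.

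Of these 7, DEPDC1 stood at 5.10 and 4.16 after recovery, against 6.33 and 5.87 with p53 off (-1.47 ± 0.53). NDC80, which gives the microtubule coupler its name, stood at 6.41 and 5.09, against 7.40 and 6.54 with p53 off (-1.22 ± 0.50). CENPF, a large coiled-coil protein of the outer kinetochore, stood at 7.25 and 6.47, against 8.66 and 7.41 with p53 off (-1.18 ± 0.47). In these 3 genes experiment 2 was lower than experiment 1 in both groups. CDCA3 stood at 6.33 and 6.01 after recovery, against 7.48 and 7.04 with p53 off (-1.09 ± 0.24). TOP2A stood at 8.79 and 8.53, against 9.94 and 9.56 with p53 off (-1.09 ± 0.23). SMC4 stood at 7.52 and 7.80, against 8.55 and 8.75 with p53 off (-0.99 ± 0.24). All 3 were lower after recovery without overlap, and so was CASC5, at 6.15 and 6.06 against 7.30 and 7.00 with p53 off (-1.04 ± 0.21).

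All 5 cytokinesis genes were lower after recovery in both experiments and none passed the test with the median of probe sets. With the mean of probe sets and the block, ANLN, PRC1 and CEP55 did (adjusted p = 0.015, 0.026 and 0.027), while ECT2 and RACGAP1 did not. PRC1 stood at 8.64 and 8.61, against 9.69 and 9.27 with p53 off (-0.86 ± 0.22, adjusted p = 0.109 with the block). CEP55 stood at 7.09 and 5.77, against 7.78 and 6.65 with p53 off (-0.79 ± 0.53, adjusted p = 0.143 with the block). ANLN, the scaffold of the contractile ring, stood at 7.82 and 7.57, against 8.63 and 8.29 with p53 off (-0.76 ± 0.22, adjusted p = 0.107 with the block). The smallest differences of the function groups were those of ECT2 (-0.38), TACC3 (-0.50), UBE2C (-0.45), BIRC5 (-0.11) and, among chromosome genes, CDCA5 (-0.26).

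Members near control after recovery had differed from it to unequal degrees with p53 on. BUB3 (0.13), BIRC5 (-0.11) and INCENP (-0.21) had stood near control with p53 on as well. With the mean of probe sets their differences after recovery were -0.06, -0.34 and -0.52, none called with the block. CENPM, an inner kinetochore gene, stood at 6.40 and 6.62 after recovery, against 6.78 and 6.56 with p53 off (-0.16 ± 0.20), after a p53 on difference of -0.52. CDCA5 stood at 7.50 and 6.93, against 7.69 and 7.26 with p53 off (-0.26 ± 0.28, adjusted p = 0.579 with the block), after a p53 on difference of -1.08. CENPI stayed further from control, at -0.75 ± 0.37 and without overlap (adjusted p = 0.151 with the block). It differed by -0.46 in experiment 1 and -1.04 in experiment 2. With the mean of probe sets and the block CENPI was called lower (-0.74, adjusted p = 0.0335). CDC25C, PTTG1 and FAM83D had differed from control by -0.03, 0.13 and -0.16 with p53 on. After recovery they stood at -0.77, -0.86 and -0.85, none past the test with the median of probe sets (adjusted p = 0.152, 0.281 and 0.131 with the block). With the mean of probe sets and the block each was called lower (adjusted p = 0.0196, 0.0226 and 0.0246), as were 1.47% of all genes.

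Of 90 further genes listed for the same machines, 89 were measured. With p53 on their median was -0.48, 1 was called lower without the block (0.585% of all genes were), and 28 fell and 0 rose with it (6.28% and 5.18% of all genes). After recovery their median against control was -0.29, with 2 called lower and 0 higher under the block (0.392% and 0.207% of all genes). In recovery against p53 on 7 rose and 3 fell with the block, where 3.84% of all genes were called higher and 3.39% lower. The call without the block was CENPO, of the inner kinetochore network, at 5.68 and 5.36 with p53 on, against 6.76 and 6.75 with p53 off (-1.24 ± 0.21, adjusted p = 0.0494, or 0.00435 with the block). Of 29 further kinetochore and centromere genes 13 fell with the block in p53 on, SKA3, a part of the complex that tracks microtubule ends, among them (-1.31 ± 0.25, adjusted p = 0.00891 with the block).

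Of 14 genes of condensin II and cohesin 6 fell with the block in p53 on, led by ESCO2, the acetyltransferase that locks cohesin in S phase (-1.80 ± 0.33, adjusted p = 0.00702 with the block), and NCAPD3 (-1.20 ± 0.23, 0.00886). ESCO2 rose with the block in recovery, to 5.83 and 5.46, against 4.76 and 4.19 with p53 on (adjusted p = 0.0472). Of 15 genes around the anaphase-promoting complex 2 fell in p53 on (13.3%, against 6.28% of all genes), its inhibitor FBXO5 (-1.06 ± 0.30) and its subunit CDC26 (-0.85 ± 0.21). The list had a median of -0.39, with 10 genes lower and 4 higher in both experiments. Of 19 augmin and spindle pole genes 4 fell in p53 on. HAUS3 and HAUS8 of augmin, which branches microtubules, were among them, and both rose in recovery (1.18 ± 0.35 and 1.01 ± 0.31, adjusted p = 0.012 and 0.014 with the block). The other 4 that rose in recovery were DSN1 (0.99), PDS5A (0.73), HAUS6 (0.73) and NSL1 (0.73). Those that fell were C6orf173, the array's name for CENPW (-0.83 ± 0.44), SKA2 (-0.74 ± 0.36) and SEPT9 (-0.71 ± 0.41), with adjusted p between 0.0257 and 0.0417 with the block. Of 12 further cytokinesis genes 3 fell with the block in p53 on (25%, against 6.28% of all genes), ARHGAP11A (-1.03 ± 0.49) and ROCK1 (-0.78 ± 0.32) among them. The median of this list was -0.04, and 6 of its genes were lower and 4 higher in both experiments. The 2 genes still lower after recovery with the block were SPAG5, a spindle protein (-1.17 ± 0.21, adjusted p = 0.0413), and CIT, citron kinase of the midbody (-1.14 ± 0.26, adjusted p = 0.0435).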

How the data were processed

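Per the labels, total RNA (100 ng) was labelled with the Whole Transcript Sense Target kit and hybridised to Affymetrix Gene 1.0 ST arrays. The deposited values were read as log2 signals, since they ran from -0.847 to 13.14. The program and scaling behind them were not given in the sources used here. Medians per array were 5.24 to 5.31 and the values were not rescaled. The precision is limited by 2 arrays per group.

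Of 257430 probe sets, 224320 carried 1 symbol in the platform annotation and were used, 10159 carried several and 22951 had none listed. Gene values are medians over probe sets, and genes under a mean log2 of 3.62 were left out. One model over all 6 arrays, without a block, was fitted in limma 3.58.1 (R 4.3.3). Exact permutation of 2 against 2 arrays reaches at best p = 0.333. The experiment number in the labels was taken to pair the arrays, and deviations from the group means of same-numbered arrays correlated at 0.496, 0.551 and 0.63 across genes. Where nothing says that the cultures were independent, p-values measure the spread between these arrays. The fits were tested on simulated data.

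The members, the function groups, the further gene lists and the tests were chosen with earlier results of these data known. The naming rule takes, per function group and comparison, the 3 largest differences with the same sign in both experiments, every call without the block, and the smallest difference; of the further lists, calls and otherwise the 2 largest differences. TTK, the further genes named for their recovery, the probe set examples and the remaining members given with values were chosen after their values were seen. Alternatives covered the block, probe set summary, dim filter, quantile normalization, samples in the fit, variance prior and each array left out.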

Additional observations from a re-analysis of the deposited data

How the results depend on the processing

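Calls among the 58 genes depended on the setting far more than their medians did. In p53 on, 3 members were called lower without the block and 35 with the replicate block, against 0.585% and 6.28% of all genes. With the mean of probe sets 7 were (1.53% of all genes called lower). The count was 0 without the dim filter (0.16%) and 0 with only the groups compared (0.0285%). The 3 calls were lost with any array left out, as were most calls among all genes. Combinations chosen after seeing the data gave 45 (block and mean of probe sets), 19 (block, no dim filter) and 36 (block and quantile normalization), against 10.5%, 2.49% and 5.85% of all genes called lower. In recovery against p53 on the counts were 0 without the block and 0 to 0 with any array left out, 3 with the block, and 9, 1 and 3 in the same combinations. The 9 were 4 lower and 5 higher, against 6.05% and 7.96% of all genes. In recovery against p53 off they were 0 and 0 to 0, then 12 with the block, and 35, 1 and 10. The medians kept their sign with each array left out in p53 on (-0.92 to -0.54) and in recovery against p53 off (-0.93 to -0.58). For recovery against p53 on, that range was -0.19 to 0.092. Among the 3 largest differences of each function group in recovery minus p53 on, SGOL1 turned sign with the mean of probe sets (0.29, with and without the block). Over the fits with an array left out, CENPK (-0.30 to 1.35, with -0.22 when recovery array 1 was absent), CEP55 (-0.24 to 1.08), RACGAP1 (-0.027 to 0.52) and DEPDC1 (-1.22 to 0.29) did. Members with smaller differences that turned sign are not listed here. Leaving out an array without the block unbalances the experiments, so their offset enters the differences of CENPK, CEP55, RACGAP1 and DEPDC1. Each of these had the same sign in both experiments. The cause of the SGOL1 turn was not tested.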

Other observations

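The experiments differed in the level of the mitotic genes within every group. The median difference of experiment 1 minus experiment 2 over the 58 genes was 0.265 log2 units with p53 on, 0.308 after recovery and 0.328 with p53 off. Across all genes tested the median differences of experiment 1 minus experiment 2 were 0.0468, 0.0155 and 0.0547. With p53 on 45 of the 58 genes were lower in experiment 2 (77.6%, against 54.0% of all genes tested). After recovery 47 were (81.0%, against 51.5%) and with p53 off 48 were (82.8%, against 55.7%). CENPK was lower in experiment 2 by 1.65, 1.51 and 1.63 log2 units in these groups, an offset of like size in each. The offset of other genes varied with the group: PTTG1 was lower in experiment 2 by 1.93 with p53 on, 0.438 after recovery and 1.19 with p53 off, and CDC20 by 0.499, 1.11 and 1.84. These offsets enter the spread of the fit without the block and are removed by the fit with it where they are equal across the groups.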
